A study of Homo sapiens with 8 samples.

Results

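Saos-2 cells lengthen their telomeres by a route that needs no telomerase, alternative lengthening of telomeres (ALT), and the genes described here are 10 that keep, extend or shorten chromosome ends. They are TERT, the catalytic subunit of telomerase, the 6 shelterin genes TERF1, TERF2, TERF2IP, POT1, TINF2 and ACD, and ATRX, DAXX and SMARCAL1, whose products hold back recombination or repair stalled forks at telomeres. Every probe set that the platform annotation gave to 1 of these genes and to no other was taken, which made 23 of the 54613 probe sets that are not array controls and 10 of the 19775 genes with a probe set of their own. All 10 genes had at least 1. TERF2 had 5 probe sets, ATRX 4 and TINF2 3. TERT, DAXX, TERF1 and POT1 had 2 each, and TERF2IP, ACD and SMARCAL1 had 1 each.

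Saos-2 is an established osteosarcoma line, labelled p53 null in every group. Cells were left untreated (3 arrays), or treated with a compound labelled Prima for 6 h (3 arrays) or for 12 h (2 arrays, replicates 1 and 3), and the question was how the transcriptome of cells without p53 responds to it. The labels give neither a dose nor a vehicle for the untreated cells, and nothing in them tells whether replicates were separate cultures. The p-values therefore rest on the spread between these arrays, which may be technical. A smaller share of cells with a transcript and less of it per cell cannot be told apart in such bulk RNA. Values are MAS5 signals on a linear scale, each array scaled to a 2% trimmed mean of 100.01. A probe set reports its own brightness, so signals of different probe sets are not set against each other.

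Telomeres are repeats of the DNA word TTAGGG, bound by shelterin. TERF1 and TERF2 grip the double-stranded repeat, POT1 the single-stranded overhang, TINF2 and ACD join them, and TERF2IP sits on TERF2. Most cancers extend these repeats with telomerase, while ALT cells, common among osteosarcomas, copy telomeres from one another by recombination. Loss of ATRX or of its partner DAXX, which together place the histone H3.3 at telomeres, is a frequent feature of ALT lines, and SMARCAL1, an annealing helicase that remodels stalled forks, is altered in other ALT tumours.

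The 2 arrays numbered 2 stood apart from the other 6. They had medians of 50.8 and 47.5 over all probe sets where the rest had 14.2 to 24.9, and the 12 h group has no such array. For ACTB, the ratio of 3′ to 5′ probe sets, which rises as RNA degrades, reached 2.29 (12 h replicate 1) and 1.73 (6 h replicate 1) and otherwise stayed within 1.12 to 1.38. All 7 osteoblast-lineage markers with a probe set lay above the median probe set in mean signal, RUNX2 at 1411 to 2350 among them, whereas 1 of 4 epithelial, 1 of 3 leukocyte and 1 of 3 endothelial markers did. The epithelial marker EPCAM read 122 to 245 on 7 arrays and 26.0 on untreated replicate 2, and RB1 7.97 to 69.4.

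The promoters of TINF2 and TERF2IP are shown because these 2 genes had, on the brightest probe set of each gene, the smallest SD of log2 signal over the 8 arrays (0.06 and 0.18), a choice made after the values were seen. The sequences are RefSeq's on GRCh38.p14. The table used held promoters of 6 of the 10 genes. The TINF2 sequence is the 250 bases before its annotated start (chr14:24242675-24242924, minus strand). For TERF2IP it is the 107 bases between its start and that of KARS1, the lysyl-tRNA synthetase gene, which is read the other way (chr16:75647666-75647772, plus strand).
TINF2: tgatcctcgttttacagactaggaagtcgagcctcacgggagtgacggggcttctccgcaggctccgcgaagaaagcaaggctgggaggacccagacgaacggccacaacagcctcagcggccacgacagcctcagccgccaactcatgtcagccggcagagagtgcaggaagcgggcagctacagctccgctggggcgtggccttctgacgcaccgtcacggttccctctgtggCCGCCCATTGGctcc
TERF2IP: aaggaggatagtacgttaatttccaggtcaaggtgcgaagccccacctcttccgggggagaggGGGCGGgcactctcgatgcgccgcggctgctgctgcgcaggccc
Capitals mark matches, on either strand, to 5 motifs: the GC box GGGCGG, the box named CCAAT, the E-box CACGTG, the start motif TATAAA and the telomere repeat TTAGGG. The TINF2 window held 1 GC box and 1 CCAAT, both read on the opposite strand and side by side without overlap, and the TERF2IP stretch held 1 GC box. Over all 35116 promoter windows of the table, 42.6% held a GC box and 32% a CCAAT in the 250 bases before the start, and 32.3% a GC box in the 107 bases before it. The E-box, the start motif and the telomere repeat had no match in the TINF2 and TERF2IP sequences, and 6.34%, 10.7% and 7.94% of all windows of 250 bases held them. In windows of 107 bases, the length of the TERF2IP stretch, the shares were 3.59%, 5.22% and 2.9%. CCAAT had no match in that stretch either, and 19% of such windows held it.

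TERT gave dim and scattered signals in every group. Probe set 207199_at read 8.81, 40.2 and 8.63 on untreated replicates 1, 2 and 3, 28.0, 46.7 and 6.96 on the 6 h replicates, and 26.8 and 16.3 on 12 h replicates 1 and 3. Probe set 1555271_a_at read 27.9, 26.8 and 11.0 in untreated cells, 17.9, 17.8 and 13.2 after 6 h, and 29.4 and 1.57 after 12 h. The groups overlapped on both probe sets, and the highest values of 207199_at were those of the arrays numbered 2. The median probe set of the table, used as the limit for testing, had a mean log2 signal of 4.22 (a signal of 18.6), and the TERT probe sets averaged 4.19 (207199_at) and 3.90, so neither was tested there. When all 54613 probe sets were fitted, 207199_at differed from untreated by a log2 value of 0.52 ± 1.06 (SE) at 6 h and 0.53 ± 1.18 at 12 h, and 1555271_a_at by -0.32 ± 1.14 and -1.27 ± 1.28 (limma, adjusted p = 1 in each case). The intervals were wide, from -1.92 to 2.97 for 207199_at at 12 h, so a TERT change of several fold either way was not detectable on these arrays. The files hold no detection calls, so these signals do not say whether TERT mRNA was present.

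ATRX, a chromatin remodeller, had 2 probe sets too dim to test and 1 close to the limit. Probe set 208859_s_at read 4.70, 4.99 and 0.430 in untreated cells, 15.4, 30.3 and 0.969 after 6 h, and 0.636 and 0.252 after 12 h, with 4 of 8 arrays at or under the floor of 2.39. Probe set 208860_s_at read 3.85, 51.3 and 8.18, then 3.94, 18.7 and 0.824, then 11.6 and 0.884. Both averaged under the limit for testing, at mean log2 signals of 2.31 and 2.86.
The third, 208861_s_at, averaged 4.46 and was tested. It read 25.7, 83.7 and 13.6 in untreated cells, 32.8, 88.5 and 10.6 after 6 h, and 5.08 and 12.0 after 12 h. Its 12 h arrays lay under all untreated arrays, a log2 difference of -1.98 ± 1.11 (SE, limma, adjusted p = 0.9999), which became -1.25 ± 0.74 with the replicate number as a block and -1.26 ± 0.99 without both arrays numbered 2. Those arrays carried the 83.7 and the 88.5, and its lowest value, 5.08, was on 12 h replicate 1, the array with the highest ACTB ratio.
The fourth, 211022_s_at, was above the median probe set on all 8 arrays. It read 67.6, 81.5 and 102.5 in untreated cells, 75.5, 123 and 98.7 after 6 h, and 51.2 and 84.7 after 12 h. Its lowest value, too, was on 12 h replicate 1, and the part of RNA integrity in either reading was not tested. The groups overlapped, with log2 differences of 0.24 ± 0.38 at 6 h and -0.33 ± 0.43 at 12 h (limma, adjusted p = 1 and 0.9999). The 4 ATRX probe sets, in the order given, exceeded the limit for testing (a signal of 18.6) on 1, 2, 4 and 8 of the 8 arrays. On 6 h replicate 2, whose own median was 47.5, the 30.3 of 208859_s_at and the 18.7 of 208860_s_at lay under that median. Which transcripts each ATRX probe set reads was not tested.

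**Figure D1:**
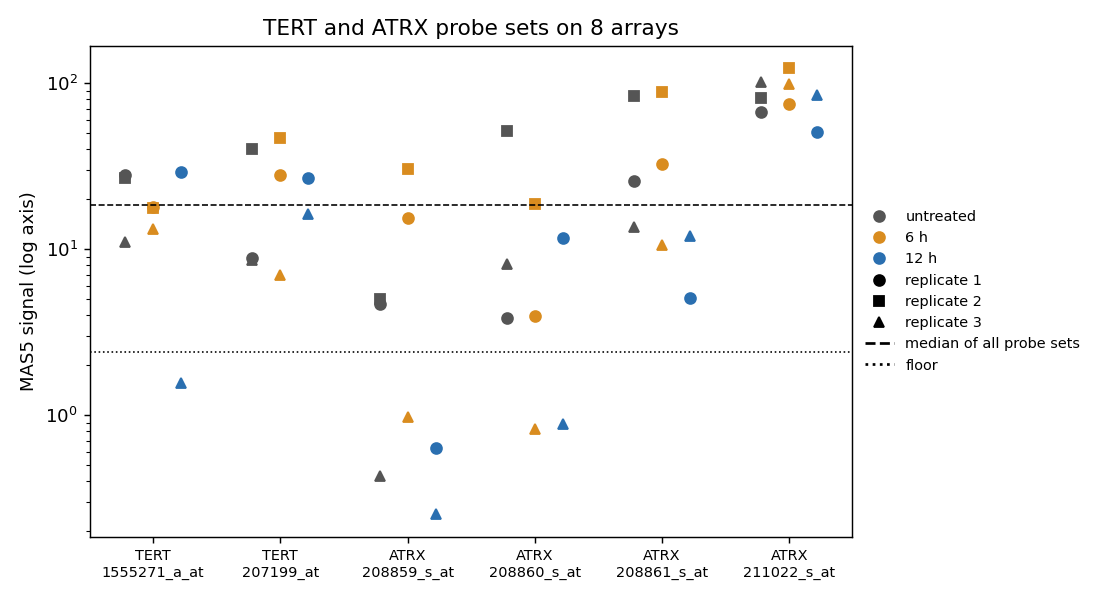
MAS5 signal (log axis) of the 2 TERT and 4 ATRX probe sets on each of the 8 arrays, coloured by group and shaped by replicate number; the dashed line is the median of all probe sets (18.6) and the dotted line the floor (2.39). ATRX 211022_s_at lies above the dashed line on all 8 arrays, and the squares, the arrays numbered 2, are the highest points of ATRX 208861_s_at.

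DAXX, the histone chaperone that works with ATRX, was above the limit for testing (a signal of 18.6) on every array on both its probe sets. On 6 h replicate 2, however, 216038_x_at, at 42.8, lay under that array's own median of 47.5. Probe set 201763_s_at read 135, 218 and 98.6 in untreated cells, 170, 119 and 111 after 6 h, and 134 and 125 after 12 h. Probe set 216038_x_at, of a class whose probes can bind other transcripts, read 89.3, 75.2 and 130.5, then 129, 42.8 and 128, then 155 and 88.3. No group stood apart on either. The log2 differences were -0.13 ± 0.36 and -0.10 ± 0.47 at 6 h, and -0.14 ± 0.40 and 0.29 ± 0.52 at 12 h (SE, limma, adjusted p = 1 at 6 h and 0.9999 at 12 h). With the replicate number as a block the 12 h differences were -0.03 ± 0.33 and -0.06 ± 0.40, so the second changed sign. On the arrays numbered 2 the probe sets went opposite ways in untreated cells, with 201763_s_at at its highest and 216038_x_at at its lowest value of that group.

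SMARCAL1 had 1 probe set, with signals of 43.5, 93.7 and 44.5 in untreated cells, 87.4, 25.5 and 48.2 after 6 h, and 76.0 and 56.6 after 12 h. Its 6 h difference was -0.25 ± 0.54 (log2, SE; limma, adjusted p = 1) and its 12 h difference 0.21 ± 0.60 (adjusted p = 0.9999). The sign at 6 h rested on replicate 2: within same-numbered arrays the 6 h difference was 1.01 in replicate 1, -1.88 in replicate 2 and 0.12 in replicate 3, and without both arrays numbered 2 it was 0.56 ± 0.43 at 6 h and 0.58 ± 0.43 at 12 h (adjusted p = 0.9995 and 1).

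The 6 shelterin genes were measured by 14 probe sets, of which 13 were bright enough to test. TERF1, which binds the double-stranded repeat and restrains lengthening by telomerase, followed the replicate number more closely than the treatment. Probe set 203449_s_at read 437, 266 and 231 in untreated cells, 392, 293 and 232 after 6 h, and 396 and 303 after 12 h. Probe set 203448_s_at read 263, 160 and 152, then 255, 162 and 162, then 292 and 180. On both, the 3 arrays numbered 1 were above the other 5. With the group held constant, replicate 1 exceeded replicate 3 by 1.61-fold on 203449_s_at and 1.64-fold on 203448_s_at (limma, adjusted p = 0.0538 and 0.0526), a comparison of replicate numbers that was added after the data were seen. Neither TERF1 probe set passed it, and 0 of the 18 tested did, where 6.46% of all probe sets passed. Between replicates 1 and 2, 0 of 18 passed as well, where 9.38% of all did. Against untreated cells, TERF1 differed by -0.004 ± 0.31 and 0.02 ± 0.34 at 6 h and by 0.21 ± 0.35 and 0.30 ± 0.38 at 12 h (203449_s_at first; log2, SE, adjusted p = 1 and 0.9999). Within same-numbered arrays the 12 h differences were -0.14 and 0.39 on 203449_s_at and 0.15 and 0.24 on 203448_s_at, in replicates 1 and 3.

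**Figure D2:**
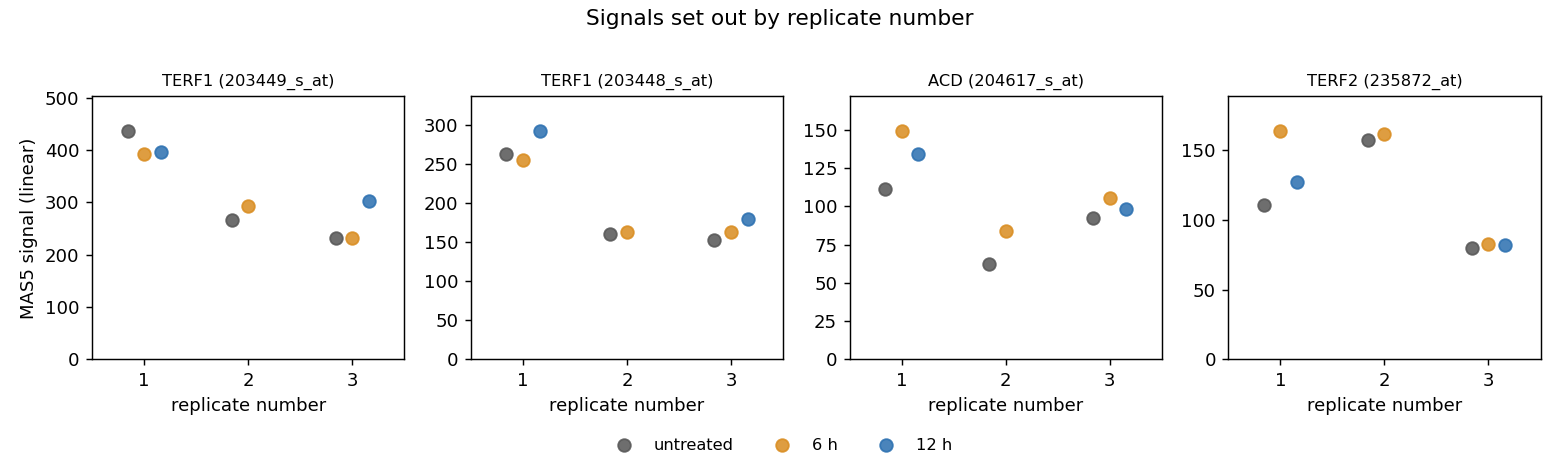
MAS5 signal (linear axis) of 4 shelterin probe sets against the replicate number, coloured by group. Both TERF1 probe sets are highest on the 3 arrays numbered 1 (392 to 437 and 255 to 292), and TERF2 235872_at is at 79.8 to 82.5 on the 3 arrays numbered 3.

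TERF2, which folds the chromosome end into a loop and hides it from damage signalling, had 5 probe sets. Probe set 203611_at, the brightest, read 124, 186 and 119 in untreated cells, 203, 141 and 151 after 6 h, and 151 and 147 after 12 h, a difference of 0.22 ± 0.31 at 6 h and 0.09 ± 0.35 at 12 h (log2, SE; limma, adjusted p = 1 and 0.9999). Without both arrays numbered 2 the differences were 0.53 ± 0.29 and 0.30 ± 0.29. All 4 tested TERF2 probe sets were above 0 at 6 h, whereas at 12 h 1 was above and 3 were below. Of those 3, 235872_at changed sign with the fit. Its 12 h difference was -0.13 ± 0.44, but 0.08 ± 0.27 with the replicate block and 0.12 ± 0.43 without both arrays numbered 2.
Probe set 235872_at read 111, 157 and 79.8, then 164, 162 and 82.5, then 127 and 82.0. Replicate 2 exceeded replicate 3 on it by 1.94-fold (limma, adjusted p = 0.0336), 1 of 2 probe sets of the 18 tested here to pass that comparison, in which 25.5% of all probe sets passed. The other was ATRX 208861_s_at (5.35-fold, adjusted p = 0.0412).
Probe sets 229790_at and 1555185_x_at had their lowest values, 28.0 and 6.08, on 12 h replicate 1, the array with the highest ACTB ratio. Their other values ran from 50.5 to 83.6 and from 14.0 to 52.2, and their 12 h differences were -0.60 ± 0.51 and -1.23 ± 0.93. Probe set 1555183_at was too dim to test, at 7.17 to 38.7. The array 12 h replicate 1 also held the highest values of 1555183_at (38.7), TERF2IP (523), TERF1 203448_s_at (292), DAXX 216038_x_at (155) and TERT 1555271_a_at (29.4). The part of RNA integrity in these low and high readings was not tested.

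TERF2IP, known as RAP1, rides on TERF2 and had the most regular untreated signals of the shelterin genes. Its probe set read 418, 412 and 414 in untreated cells, 460, 347 and 468 after 6 h, and 523 and 471 after 12 h. Both 12 h arrays were above every untreated and every 6 h array. The 12 h difference from untreated was 0.26 ± 0.27 (log2, SE; 1.20-fold, 95% interval 0.802 to 1.78; limma, adjusted p = 0.9999), 0.19 ± 0.19 with the replicate block, and 0.25 ± 0.23 without both arrays numbered 2. At 6 h it was 0.02 ± 0.24. Within same-numbered arrays the 12 h differences were 0.32 in replicate 1 and 0.19 in replicate 3. KARS1, the neighbour that starts 107 bases away and was taken for its position, read 3078, 1934 and 3688 in untreated cells, 2756, 2415 and 3295 after 6 h, and 2934 and 3079 after 12 h. Its groups overlapped, with a 12 h difference of 0.10 ± 0.29 (adjusted p = 0.9999).

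POT1 caps the single-stranded overhang. Probe set 204354_at read 204, 149 and 222 in untreated cells, 339, 168 and 212 after 6 h, and 177 and 230 after 12 h. The single high value, 339, was on 6 h replicate 1. The differences were 0.281 ± 0.325 at 6 h and 0.10 ± 0.36 at 12 h (log2, SE; limma, adjusted p = 1 and 0.9999), and with the replicate block the 12 h difference was -0.10 ± 0.28. Probe set 204353_s_at read 137, 147 and 143, then 154, 136 and 148, then 79.7 and 170. It was even on the first 6 arrays, and its lowest value was on 12 h replicate 1, which has the highest ACTB ratio, and its highest on 12 h replicate 3.

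TINF2, the hub that links TERF1, TERF2 and ACD, was the steadiest of the genes. Probe set 224809_x_at read 263, 259 and 254 in untreated cells, 281, 285 and 262 after 6 h, and 267 and 260 after 12 h, so that the highest array was 1.12 times the lowest. Probe set 223776_x_at read 227, 231 and 217, then 224, 249 and 254, then 237 and 230. On both, the arrays of the 3 groups overlapped. The 12 h differences were 0.03 ± 0.27 and 0.05 ± 0.28 (log2, SE; limma, adjusted p = 0.9999), and the 95% interval of the first ran from 0.677-fold to 1.53-fold. These intervals are wider than the arrays' own scatter because limma draws each probe set's variance towards that of probe sets of like brightness. The third, 220052_s_at, read 105, 133 and 97.1, then 119, 155 and 134, then 139 and 102. Over the 8 arrays the SD of log2 signal was 0.06, 0.08 and 0.24 on the 3 probe sets, against a median of 0.52 over all 27306 probe sets tested and 0.37 over the 18 tested here. The suffix x marks probes that can bind other transcripts, and what share of those 2 signals is TINF2 was not tested.

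ACD, known as TPP1, tethers POT1 and recruits telomerase. It read 111, 62.0 and 92.1 in untreated cells, 149, 83.7 and 105 after 6 h, and 134 and 98.4 after 12 h. The groups overlapped. Within same-numbered arrays the log2 differences were 0.42, 0.43 and 0.20 at 6 h (replicates 1, 2 and 3) and 0.27 and 0.10 at 12 h (replicates 1 and 3). The fitted difference was 0.35 ± 0.37 at 6 h and 0.42 ± 0.42 at 12 h (log2, SE; limma, adjusted p = 1 and 0.9999), and 0.35 ± 0.23 and 0.20 ± 0.27 with the replicate block (adjusted p = 0.8408 and 0.9993), so it did not pass either way.

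**Figure D3:**
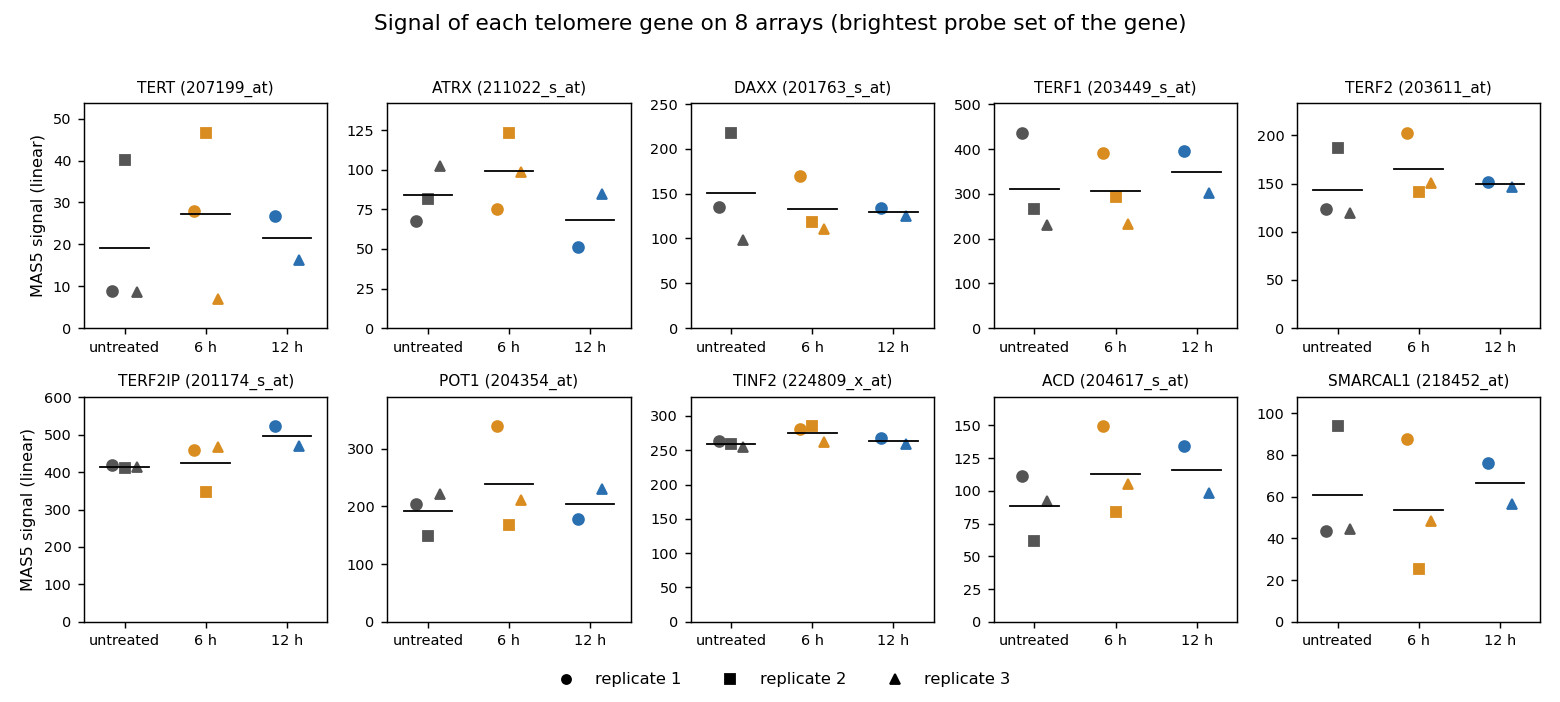
MAS5 signal (linear axes from 0, a scale of its own in each panel) of the brightest probe set of each gene on the 8 arrays; shapes give the replicate number and horizontal lines the group means. Only TERF2IP has both 12 h arrays (471 and 523) above all untreated arrays (412 to 418), and TINF2 stays between 254 and 285.

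Set together, none of the 18 tested probe sets passed the threshold between groups. With 2 or 3 arrays a group, their median SE was 0.35 at 6 h and 0.39 at 12 h (log2). Failing to pass therefore does not show that a gene was unchanged. At 6 h, 0 of the 18 tested passed (limma, adjusted p under 0.05), and 0 had an unadjusted p under 0.05, where 0% and 0.63% of all 27306 did. At 12 h the count was again 0 of 18 on both scores, against 0% and 0.809%, and for 12 h against 6 h 0 of 18 against 0% and 0.89%. With the replicate block the counts for the 18 were 0 on both scores in all 3 comparisons, where 4.4%, 2.9% and 3.03% of all probe sets had an unadjusted p under 0.05 and none an adjusted p under 0.05. Groups did not overlap for 0 of 18 at 6 h (3.59% of all), 2 of 18 at 12 h (14.1% of all) and 1 of 18 for 12 h against 6 h (11.8% of all). At 12 h they were TERF2IP, higher, as were 7.57% of all, and ATRX 208861_s_at, lower, as were 6.54%. For 12 h against 6 h it was TERF2IP, higher, as were 5.46%.

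The median log2 difference over the 18 was 0.08 at 6 h, with 14 above 0, and 0.07 at 12 h, with 11 above 0. Over all probe sets tested the medians were 0.009 and 0.004, with 51.2% and 50.4% above 0. Within same-numbered arrays, 5 of the 18 were above 0 in all 3 pairs at 6 h (TERF2 1555185_x_at and 235872_at, TINF2 220052_s_at and 224809_x_at, and ACD), as were 13.2% of all probe sets. At 12 h 9 of 18 were above 0 in both pairs, as were 28.6% of all. Direct comparison of 12 h with 6 h gave a median of -0.10, with 6 of 18 above 0, against -0.006 and 49.3%. The 18 probe sets came from 9 genes, so these counts take in the same gene repeatedly. On the brightest probe set of each gene, 6 of 9 were above 0 at 6 h (median 0.09) and 7 of 9 at 12 h (median 0.10). For 12 h against 6 h it was 4 of 9 (median -0.02). Over all 12063 genes tested, 53%, 59.9% and 57.2% were above 0 in these comparisons. Both treated groups are set against the same untreated arrays. Without both arrays numbered 2 the counts above 0 were 16 of 18 at 6 h (median 0.24), 12 of 18 at 12 h (median 0.12) and 4 of 18 for 12 h against 6 h (median -0.13). Over all probe sets in that fit 52.7%, 49.9% and 47.2% were above 0, and none passed.

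**Figure D4:**
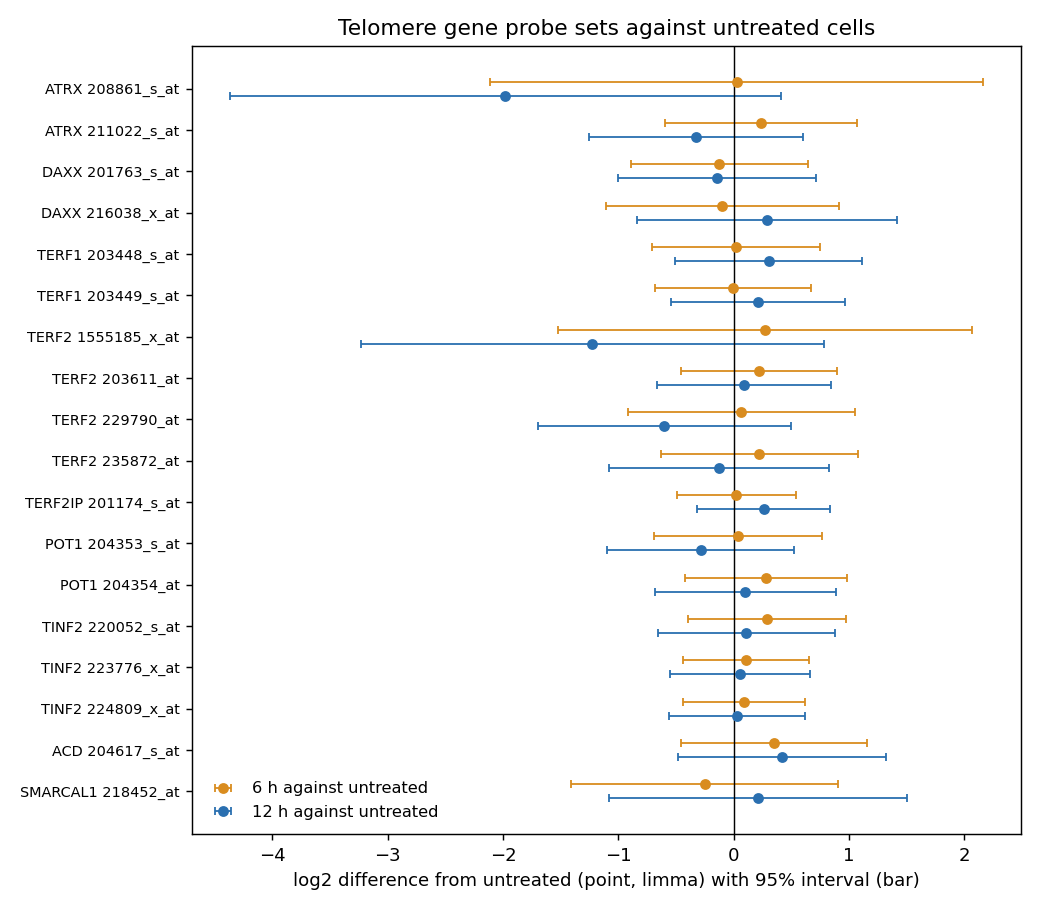
Log2 difference from untreated cells (points, limma) with 95% intervals (bars) for the 18 tested probe sets, at 6 h (3 against 3 arrays) and 12 h (2 against 3 arrays). The fit shown had no replicate block. Every interval includes 0, and at 12 h the widest are those of ATRX 208861_s_at (-4.37 to 0.41) and TERF2 1555185_x_at (-3.23 to 0.78).

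Other genes of the same biology came from 8 lists written from textbook knowledge, 117 genes in all, of which 104 had a probe set of their own and 102 were tested on the brightest one. None passed in any of the 3 comparisons (limma). At 6 h 51 were above 0 and 51 below (median -0.0002, against 0.02 over the 12063 genes tested), with 1 at an unadjusted p under 0.05 (0.98%, against 0.564% of all genes). At 12 h 80 were above 0 and 22 below (median 0.15, against 0.08 over all genes, of which 59.9% were above 0), with 0 at an unadjusted p under 0.05. With the replicate block the 12 h medians were 0.06 for the lists and 0.04 for all genes, with 66 of 102 above 0 in the lists and 57.4% of all genes, and without both arrays numbered 2 the medians were 0.10 and 0.04, with 67 of 102 above 0 in the lists and 55.5% of all genes.
TNKS, the poly-ADP-ribose polymerase tankyrase that releases TERF1 from telomeres, was the 1 gene under 0.05 at 6 h. It read 85.4, 58.9 and 105 in untreated cells, 189, 134 and 117 after 6 h, and 98.5 and 113 after 12 h. All 6 h arrays were above all untreated arrays, by 0.83 ± 0.35 (log2, SE; limma, adjusted p = 1, and 0.8408 with the replicate block). Its paralog TNKS2 read 436, 332 and 337, then 397, 419 and 440, then 490 and 581, with both 12 h arrays above all others (0.545 ± 0.269 at 12 h, adjusted p = 0.9999). Such separation upwards was seen in 2.03% of all genes at 6 h and 9.6% at 12 h, and in 3 and 19 of the 102. TNKS and TNKS2 are named for the smallest p in their list, which favours separated groups. The end processing and CST list, which holds both, had 6 of 11 genes above 0 at 6 h and 6 of 11 at 12 h.

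Of the telomerase particle and its assembly factors, 4 of 10 were above 0 at 6 h and 9 of 10 at 12 h (median 0.11), or 8 of 10 with the replicate block (0.07). TGS1, which caps the telomerase RNA, and PARN, the nuclease that trims it, led at 12 h with 0.58 ± 0.48 and 0.48 ± 0.41 (log2, SE). In the ATRX, DAXX and H3.3 chromatin list 4 of 12 were above 0 at 6 h and 11 of 12 at 12 h (median 0.23), which became 7 of 12 with the replicate block (median 0.12), with the histone methyltransferase SUV39H1 at 0.68 ± 0.44 and the histone chaperone ASF1B at 0.36 ± 0.31. Of the recombination and break-induced replication genes 10 of 18 and then 16 of 18 were above 0 (12 h median 0.19), and 13 of 18 at 12 h with the block (median 0.065). BRCA1, of homologous recombination, and POLD1, the catalytic subunit of polymerase delta, differed by 0.62 ± 0.36 and 0.45 ± 0.33 at 6 h. None of these values passed (adjusted p from 0.9999 to 1).
Of the helicases, resolvases and fork remodellers 7 of 15 and then 11 of 15 were above 0 (10 of 15 at 12 h with the block), with RMI1, of the BLM complex, at 0.29 ± 0.29 and ZRANB3, an annealing helicase related to SMARCAL1, at -0.52 ± 0.56 at 12 h. In the list of ALT-associated PML bodies, where telomeres cluster in ALT cells, 7 of 10 were above 0 at both times. SMC6, 1 of the 3 list genes separated upwards at 6 h, differed by 0.42 ± 0.26 (273 to 301 at 6 h, 184 to 243 untreated), and PML itself by -1.29 ± 0.81 at 12 h, or -0.82 ± 0.54 with the block, with its highest value, 87.8, on untreated replicate 2. Of telomere damage signalling genes 7 of 15 and then 12 of 15 were above 0, but with the block 6 of 15 at 12 h, where the median turned from 0.12 to -0.01. ETAA1, an activator of ATR, and the mediator MDC1 differed by -0.68 ± 0.49 and 0.325 ± 0.259 at 12 h. Of regulators of TERT transcription 6 of 11 and then 8 of 11 were above 0. The activators SP1 and KLF4 differed by 0.69 ± 0.37 and 0.67 ± 0.41 at 12 h, or 0.41 ± 0.21 and 0.35 ± 0.27 with the block.

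Genes whose pattern over the 8 arrays was most like that of a telomere gene were taken as those with the smallest mean absolute difference in log2 signal after each gene was centred on its own mean, on the brightest probe set. For TERF1 these were PTBP2 (0.08) and USP53 (0.09), against a median of 0.43 over 12062 genes, and PTBP2 read 1057 to 1101 on the 3 arrays numbered 1 and 626 to 758 on the other 5. For TERF2IP they were TBL1XR1 and SRRM1 (0.04 each, median 0.33), for POT1 HACD3 and CKAP2 (0.04 each, median 0.39), for TINF2 CSRNP1 (0.04) and LMAN1 (0.05, median 0.33), and for ACD EXOSC10 (0.05) and LONP2 (0.07, median 0.40). For TERF2 they were PIP4K2B (0.06) and UPF2 (0.07, median 0.40), for DAXX CENPBD1P (0.07) and CABLES1 (0.10, median 0.44), for ATRX ZNF33B (0.10) and UTP20 (0.12, median 0.475), and for SMARCAL1 DNM1 (0.11) and TMEM106B (0.13, median 0.57). All genes share the same 8 arrays, so this measure carries the arrays' own differences.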

How the data were processed

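RNA from Saos-2 cells was hybridised as biotin-labelled cRNA to 8 Affymetrix arrays, 1 per sample, per the labels' protocols. Each deposited value is the linear intensity of a probe set, which the authors computed; the submitters' processing notes name MAS5. Its version was not given in the sources used here. Groups and replicate numbers came from the labels. Of 54675 probe sets, 62 controls were left out. A floor at the 10th percentile (a signal of 2.39) replaced lower signals ahead of the log2 step, which understates differences of dim probe sets. A probe set was tested if its mean log2 signal exceeded the median of all (4.22), which left 27306, 18 of the 23 described.

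Groups were compared in R 4.3.3 with limma 3.58.1 (lmFit, eBayes with a variance trend, 3 groups in 1 fit), two-sided, with Benjamini-Hochberg adjustment over all probe sets tested and a threshold of 0.05. The code was tested on simulated data. Probe sets were named by a platform annotation that gave 1 symbol to 41091, several to 1801 and none to 11721. Deviations of same-numbered arrays from their group means correlated at 0.197 to 0.624 in all 7 pairs (-0.531 to 0.249 for the 14 pairs of unequal number). Deviations within a group cancel out, and those of the 2 arrays at 12 h mirror each other, so these correlations are not independent. The array 12 h replicate 1 correlated at 0.249 with untreated replicate 2 and 0.197 with untreated replicate 1. With 6 h replicates 2 and 1 it correlated at 0.231 and 0.232. The number was treated as pairing arrays, and a fit with the number as a block was run beside each. The genes, lists and tests were chosen with earlier results of these data known. Named genes were the 10, 2 of each list with the smallest p at 6 h or 12 h against untreated, and the 2 most alike to each gene. KARS1 was added for its position. Alternatives are given at the end.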

Additional observations from a re-analysis of the deposited data

How the results depend on the processing

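The count of probe sets past the threshold was 0 in all 3 comparisons under each of the 20 alternatives run: the replicate block, quantile normalization, median centring, a floor of 1, a pseudocount of 32, no filter, a filter at the 75th percentile, 1 probe set a gene, no variance trend, only the groups compared, array weights, each array left out in turn, and both arrays numbered 2 left out. With the replicate block the count stayed at 0 in each comparison and no call changed. The median over the telomere probe sets stayed within 1 SD of the arrays (0.19) except under median centring, where it was 0.65 for 12 h against untreated and 0.49 for 12 h against 6 h. Centring moved the median of all probe sets by as much (0.59 and 0.58), the arrays numbered 2 having the highest medians and no counterpart at 12 h, and with it 15 of 18 telomere probe sets were above 0 in both. The SD of 0.19 is larger than the main medians (0.08, 0.07 and -0.10), so staying within it does not show that they were stable. The 6 h median was -0.002 without 6 h replicate 1 and 0.24 without both arrays numbered 2. The 12 h median was -0.006 under quantile normalization. In the other alternatives both stayed above 0. Of the 347 values of single telomere probe sets per comparison, 31, 25 and 26 had the other sign than the main value at 6 h, at 12 h and for 12 h against 6 h, and 6 of 18 probe sets kept theirs throughout in each. The smallest adjusted p among them was 0.8408. The limits are the 2 arrays at 12 h, a replicate number that takes up much of the spread, and the dim TERT and ATRX signals.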
